A study of Mus musculus with 7 samples.

Results

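The genes described here encode 10 enzymes that remove superoxide and peroxides: the superoxide dismutases *Sod1* and *Sod2*, catalase (*Cat*), the glutathione peroxidases *Gpx1*, *Gpx3* and *Gpx4*, and the peroxiredoxins *Prdx1*, *Prdx2*, *Prdx3* and *Prdx5*. They were taken by symbol from the deposited expression table, and all 10 were present among its 12239 genes. The table holds RNA sequencing of the tibialis anterior muscle (TA), which lies at the shin and is mostly fast-twitch, in 4 wild-type (WT) and 3 C2-/- mouse samples. All animals were FVBN males aged 5 to 6 months and no treatment is named. C2-/- mice lack *Mybpc2*, which encodes fast skeletal myosin-binding protein C. In their germline allele a Neo cassette between LoxP sites replaces exons 2 to 22, so the gene is missing throughout the animal and not in muscle alone.

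Superoxide leaks from the mitochondrial electron transport chain and from membrane oxidases, and working muscle makes more of it. Superoxide dismutases turn it into hydrogen peroxide, in the cytosol (*Sod1*) or the mitochondrial matrix (*Sod2*). Catalase splits hydrogen peroxide in peroxisomes. Glutathione peroxidases spend glutathione to reduce peroxides, and *Gpx4* is the enzyme of that family that reduces lipid hydroperoxides within membranes. Peroxiredoxins reduce peroxides through a reactive cysteine that thioredoxin usually restores.

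The 3 glutathione peroxidases measured among the 10 carry selenocysteine at the catalytic site, which is read from an internal TGA codon that would otherwise end the protein. Their coding sequences around that codon are shown, 5′ to 3′ on the coding strand of GRCm38.p6, with the TGA in capitals.
Gpx1: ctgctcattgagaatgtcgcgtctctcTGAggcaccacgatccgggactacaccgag
Gpx3: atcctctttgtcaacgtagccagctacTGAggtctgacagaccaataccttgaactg
Gpx4: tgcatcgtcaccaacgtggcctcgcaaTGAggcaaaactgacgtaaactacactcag
The TGA was codon 47 of *Gpx1* (chr9:108339451-108339453, plus strand), codon 73 of *Gpx3* (chr11:54907256-54907258, plus strand) and codon 129 of the longest *Gpx4* transcript (chr10:80054737-80054739, plus strand). The coding sequences of the other 7 genes held 0 internal stop codons.

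Promoters were searched on both strands because several of these genes are textbook targets of the stress factor Nrf2, which binds antioxidant response elements (AREs). The windows came from RefSeq and ran from 250 bases before to 50 after each transcription start of GRCm38.p6. The ARE core, spelled TGACNNNGC, was present in 12.4% of 32851 promoters of the same length, and among the 10 genes it was found for *Sod1* and *Prdx1*. The matched windows are shown with the core in capitals, which lies on the opposite strand in both.
Sod1 (chr16:90220696-90220724, plus strand): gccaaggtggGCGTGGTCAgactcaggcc
Prdx1 (chr4:116685456-116685484, plus strand): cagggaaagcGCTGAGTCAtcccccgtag
The forkhead (FoxO) element GTAAACA, held by 3.65% of promoters, was found for 0 of the 10. A match of letters is a description of the sequence and not evidence of binding.

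Expression is given as log2 CPM (counts per 1e6 mapped reads) as scaled by the authors, who added 0.5 reads before taking the log. Differences are C2-/- minus WT on that scale, from limma, with their standard error (SE). The threshold for calling a gene was a fold change above 1.5 in either direction together with an adjusted p below 0.05. WT replicates 1 to 3 held 14929214 to 15464499 reads, whereas WT replicate 4 held 4683853 and the C2-/- libraries 2613277 to 4917936, so depth and genotype cannot be told apart beyond WT replicate 4. *Mybpc2* had 25665 to 110159 reads in WT and 3 to 8 in C2-/-, as the labels require, and all 12 fast-fibre markers were detected in every library. In bulk muscle, fewer cells of a type and less RNA per cell cannot be told apart.

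In C2-/- muscle, *Cat* transcripts were 4.57-fold higher, *Gpx4* transcripts 7.33-fold lower and *Prdx2* transcripts 3.08-fold lower than in WT. Smaller changes past the threshold were a rise in *Sod2* and falls in *Prdx5*, *Gpx3* and *Prdx3*, whereas *Sod1*, *Gpx1* and *Prdx1* did not pass it. Thus 7 of the 10 genes were past the threshold, beside 45.2% of all genes. Those 7 comprised 2 higher genes, beside 20.2% of all genes, and 5 lower genes, beside 25.0%. The C2-/- values lay wholly above the WT values for *Sod1*, *Sod2* and *Cat*, beside 22.6% of all genes, and wholly below them for *Gpx3*, *Gpx4*, *Prdx2* and *Prdx5*, beside 26.7%. The median log2 change was -0.38 over the 10 genes and -0.14 over all genes, and the median size of the change, ignoring its sign, was 0.68 compared with 0.91 for all genes. By this median of the values as deposited, the 10 genes as a group did not move further than a typical gene of the table. Their changes had no common direction. After the correction for base composition described below, 7 of the 10 passed, 3 as higher and 4 as lower, beside 20.6% of all genes.

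**Figure D1:**
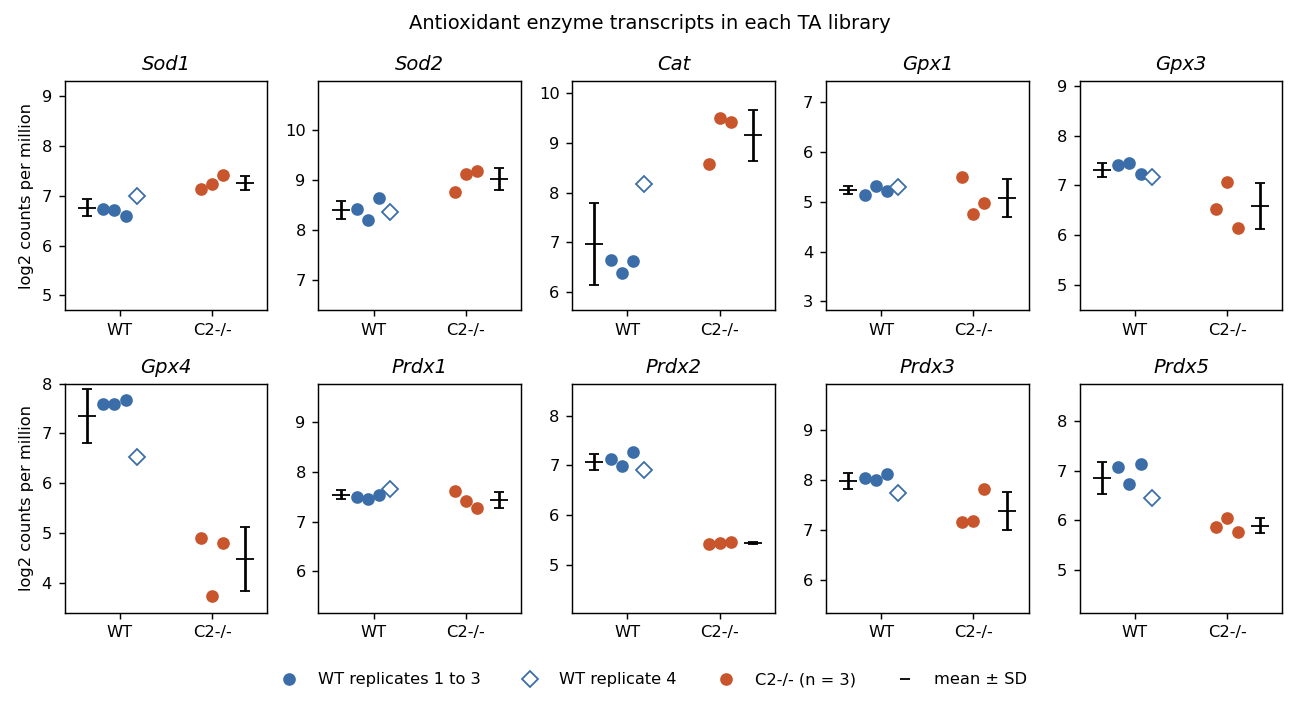
Log2 CPM of the 10 genes in each library, with WT in blue, C2-/- in orange and WT replicate 4, the shallow WT library, as an open diamond. Bars give the mean ± SD (WT n = 4, C2-/- n = 3), and every panel spans the same number of log2 units. *Cat* was 6.39 to 8.18 in WT and 8.57 to 9.49 in C2-/-, *Gpx4* was 6.53 to 7.67 in WT and 3.73 to 4.90 in C2-/-, and WT replicate 4 lay between the other WT libraries and C2-/- for both.

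Log2 changes followed the base composition of transcripts over the whole table, and the 10 genes span much of that range, from 42.2% GC in *Sod2* to 60.2% in *Gpx4*. The median change was 0.81 among genes with 42 to 44% GC, 0.03 at 48 to 50% and -1.82 at 60 to 62%. Against this background *Cat* (48.7% GC) lay far above the genes of its own composition and *Prdx2* (50.4%) far below, while *Sod2* (42.2%) lay within the middle 50% of its own. When each library was corrected for GC content, 20.6% of all genes passed the threshold, 12.3% as higher and 8.33% as lower. Again 7 of the 10 passed, but only *Cat*, *Gpx4*, *Prdx2* and *Prdx3* passed in the same direction with and without the correction. *Sod1* and *Gpx1* passed as higher and *Prdx1* as lower after it, while the calls of *Sod2*, *Gpx3* and *Prdx5* were lost and their signs turned. Across all genes past the threshold, 44.7% were higher without the correction and 59.6% with it. The part of base composition in these differences was not tested.

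**Figure D2:**
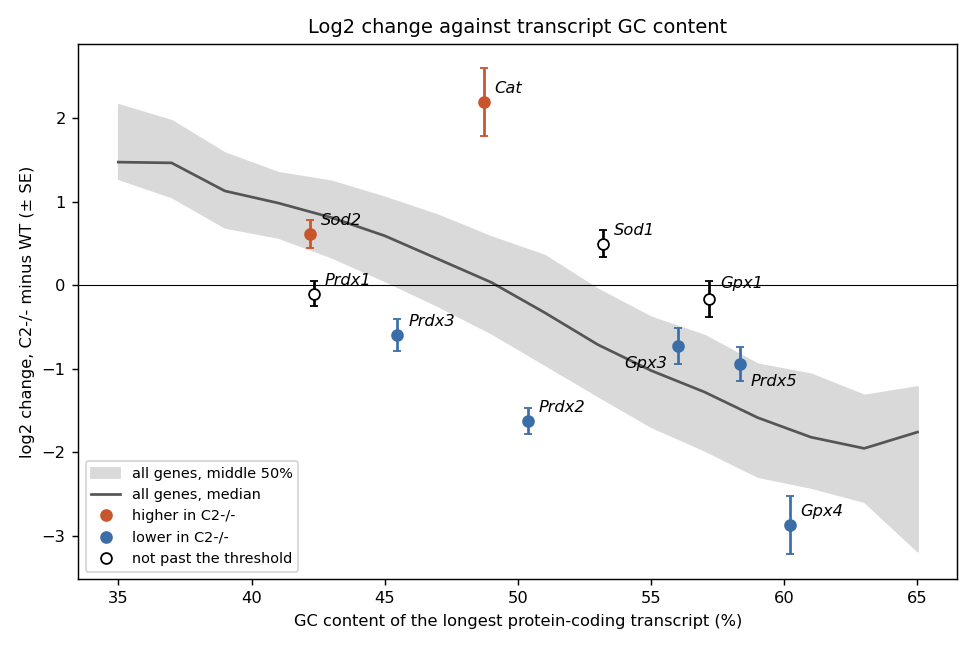
Log2 change (C2-/- minus WT, ± SE) of the 10 genes against the GC content of their longest protein-coding transcript in percent, with orange for higher, blue for lower and open black for not past the threshold. The grey line and band give the median and middle 50% of all genes in steps of 2 percentage points; *Cat* at 2.19, *Sod1* at 0.50 and *Gpx1* at -0.16 lie above the band, and *Prdx1* at -0.10, *Prdx2* at -1.62, *Prdx3* at -0.60 and *Gpx4* at -2.87 lie below it.

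WT replicate 4 allowed a comparison at similar depth, although with 1 library in the WT arm the spread comes from the 3 C2-/- libraries alone. That library is assumed to vary as they do, and it stood apart from the other WT libraries for *Cat* and *Gpx4*. When the 3 C2-/- libraries were set against this library alone, 4.53% of all genes passed the threshold, and 2 of the 10 did so, *Gpx4* and *Prdx2*. *Cat* was 0.98 higher than in WT replicate 4, less than the 2.60 by which it exceeded the mean of WT replicates 1 to 3. With the GC correction as well, 0 of the 10 passed in this reduced set, in which 20 of all genes did.

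**Figure D3:**
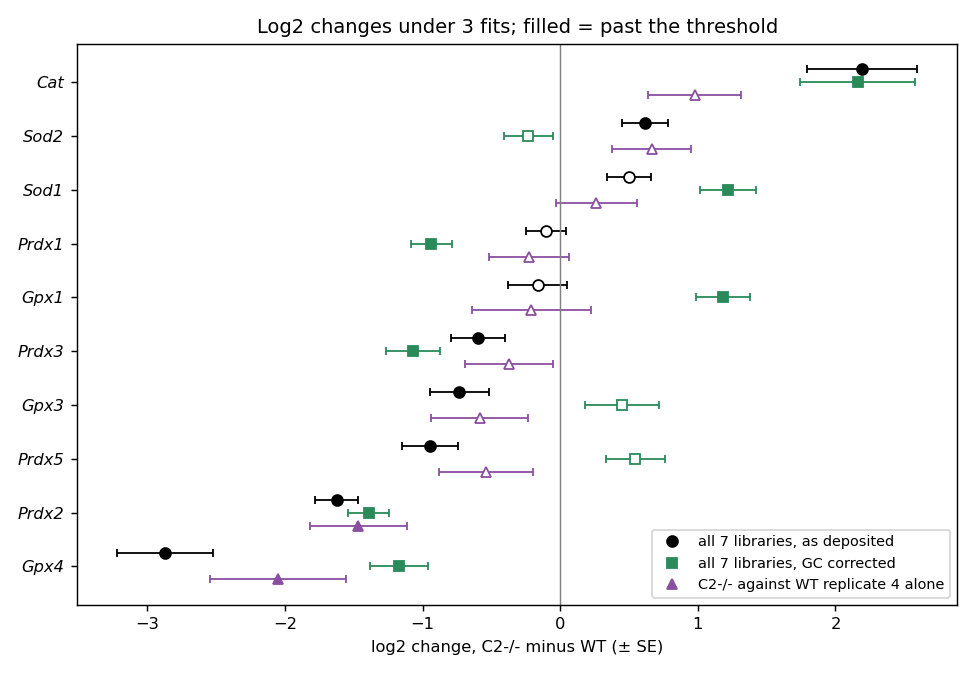
Log2 changes (C2-/- minus WT, ± SE) of the 10 genes in 3 limma fits: all 7 libraries as deposited (circles), all 7 after GC correction (squares) and C2-/- against WT replicate 4 alone (triangles, spread from the C2-/- libraries only), with filled symbols past the threshold. *Prdx2* keeps its place in all 3 fits (-1.62, -1.39 and -1.47), *Cat* moves from 2.19 to 0.98 in the last fit, and *Sod2*, *Gpx1*, *Gpx3* and *Prdx5* change sign with the correction.

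Both superoxide dismutases were higher in C2-/- as deposited, *Sod2* past the fold minimum and *Sod1* under it. *Sod1*, which encodes the copper and zinc enzyme of the cytosol, stood at 6.73, 6.72, 6.60 and 7.0 across the WT libraries in replicate order and at 7.13, 7.23 and 7.41 across the C2-/- libraries (log2 CPM, as for every gene that follows). The C2-/- values were all above the WT values, with WT replicate 4 the nearest. The change of 0.50 (SE 0.16, limma adjusted p = 0.0285) corresponds to 1.41-fold, under the minimum of 1.5. After the GC correction the values were 6.19 to 6.88 in WT and 7.33 to 7.88 in C2-/-, and the change was 1.22 (SE 0.21, limma adjusted p = 0.00415). Centring each library on its median, which moves the median change of all genes by 0.16, also brought *Sod1* past the threshold at 0.66. *Sod1* shares 23.1% of its 50-base stretches with the pseudogene Gm8566, and how reads that fit several places were counted was not stated.

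*Sod2*, which encodes the manganese enzyme of the mitochondrial matrix, was at 8.41, 8.20, 8.63 and 8.35 in WT and at 8.76, 9.12 and 9.17 in C2-/-. The groups did not overlap, although C2-/- replicate 1 exceeded WT replicate 3 by little. The rise of 0.62 (SE 0.17, limma adjusted p = 0.0139) is 1.53-fold, close to the minimum. It was under the threshold without WT replicate 2 (0.55), without C2-/- replicate 2 (0.57) and without C2-/- replicate 3 (0.54). The GC correction gave -0.23 (limma adjusted p = 0.375), so the direction of *Sod2* depended on that correction. The log2 value of *Sod2* minus that of *Sod1* was 1.351 to 2.035 in WT and 1.626 to 1.887 in C2-/-, which overlap. With the GC correction it was 1.61 to 2.93 in WT and 0.77 to 1.01 in C2-/-, without overlap.

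Catalase showed the largest rise of the 10 genes. *Cat* (chromosome 2, 103453849 to 103485160, minus strand) was at 6.65, 6.39, 6.62 and 8.18 in WT replicates 1 to 4, compared with 8.57, 9.49 and 9.41 in C2-/- replicates 1 to 3. Every C2-/- library was above every WT library, and WT replicate 4 stood closer to C2-/- than to the other WT libraries. In CPM, the 3 deep WT libraries held 84.1 to 101, WT replicate 4 held 290 and the C2-/- libraries held 379 to 720. The change was 2.19 (SE 0.40, limma adjusted p = 0.00228). It passed the threshold in the 11 other ways of processing that kept WT replicates 1 to 3 and in all 7 fits that left out a library, in which it was 2.00 to 2.60, but not against WT replicate 4 alone. The GC correction left it at 2.16, and its transcript shares 0 of its 50-base stretches with another annotated gene.

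Adipocytes also express catalase. A summed adipocyte marker level, most of it *Fabp4*, was like *Cat* higher in WT replicate 4 and C2-/- than in the deep WT libraries. That level was 294 to 317 CPM in the 3 deep WT libraries, while WT replicate 4 had 616 and C2-/- had 553 to 679. Within C2-/- the order differed. Replicates 1 to 3 had 679, 628 and 553 CPM of these markers, and 379, 720 and 678 CPM of *Cat*. Of the 5 adipocyte markers measured of 8 listed, 1 (*Fabp4*, which endothelial cells also express) passed as higher and 1 (*Plin4*) as lower. *Fabp4* held a mean of 210 CPM in WT and 549 in C2-/-. Both calls were lost with the GC correction (0.41 and -0.23), while *Plin1* then passed as higher (3.81, limma adjusted p = 0.0317). The defining markers *Adipoq*, *Plin1* and *Cfd* had as few as 1 read in a library, and *Cidec*, *Lep* and *Retn* were not analysed here. The part of adipocytes in the *Cat* difference was not tested.

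Of the 3 selenium-dependent glutathione peroxidases, *Gpx4* fell most. The log2 value of *Gpx1* minus that of *Gpx3* overlapped between the groups, with -2.27 to -1.88 in WT and -2.30 to -1.05 in C2-/-. It also overlapped after the GC correction. *Gpx4* (chromosome 10, 80047166 to 80056439, plus strand), whose loss of activity permits the lipid peroxidation of ferroptosis, was at 7.60, 7.60, 7.67 and 6.53 in WT and at 4.90, 3.73 and 4.8 in C2-/-. The C2-/- libraries were all below the lowest WT library, WT replicate 4. These values rest on 2897 to 3128 reads in the 3 deep WT libraries, 405 reads in WT replicate 4 and 35 to 134 reads in C2-/-. The fall of 2.87 (log2 change -2.87, SE 0.35, limma adjusted p = 0.000413) passed in the same 11 ways of processing, with values between -3.15 and -1.17. The C2-/- mean minus the value of WT replicate 4 alone was -2.05, a difference that no WT spread stands beside.

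*Gpx4* has the most GC-rich transcript of the 10, and the GC correction took its change to -1.17 (SE 0.21, limma adjusted p = 0.00571). In that fit the WT libraries stood at 6.78, 6.75, 6.73 and 6.21 and C2-/- at 5.48, 5.10 and 5.76, which still did not overlap. Of its 50-base stretches, 61.7% also occur in other annotated genes, the pseudogene Gpx4-ps2 and AC122253.3, neither of which is in the table. Reads from *Gpx4* and from these copies may not be separable, so its level is uncertain in both groups.

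*Gpx3* encodes the secreted plasma form of the enzyme. Its values were 7.40, 7.45, 7.23 and 7.16 in WT and 6.53, 7.06 and 6.14 in C2-/-, with C2-/- replicate 2 just under the WT range. The change was -0.73 (SE 0.22, limma adjusted p = 0.0194). It was no longer past the threshold without WT replicate 1 (-0.70), WT replicate 2 (-0.69), C2-/- replicate 1 (-0.71) or C2-/- replicate 3 (-0.51), and the GC correction gave 0.45 (limma adjusted p = 0.255).

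*Gpx1*, the cytosolic and mitochondrial form, was at 5.13, 5.32, 5.22 and 5.29 in WT and at 5.49, 4.76 and 4.98 in C2-/-. The C2-/- values fell on both sides of the WT values and the change was -0.16 (SE 0.22, limma adjusted p = 0.548). With the GC correction the groups separated, at 4.48 to 5.03 in WT and 5.76 to 5.93 in C2-/-, a change of 1.18 (SE 0.20, limma adjusted p = 0.00402). The log2 value of *Gpx1* minus that of *Gpx4* was -2.47 to -1.24 in WT and 0.18 to 1.03 in C2-/-, without overlap, and it was -2.30 to -1.18 and -0.01 to 0.76 after the correction.

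Among the 4 peroxiredoxins of the 10 genes, *Prdx2* fell most and *Prdx1* did not pass the threshold, although both encode cytosolic enzymes of the same typical 2-cysteine class. *Prdx2* (chromosome 8, 84969587 to 84974834, plus strand) was at 7.13, 6.98, 7.26 and 6.91 in WT and at 5.42, 5.45 and 5.47 in C2-/-. The 3 C2-/- values had an SD of 0.02, the smallest of the 10 genes, and all were more than a log2 unit below WT replicate 4. The change was -1.62 (SE 0.16, limma adjusted p = 0.000231), and it was -1.74 to -1.39 over those 11 ways, all past the threshold. The C2-/- mean minus the value of WT replicate 4 alone was -1.47, again with no WT spread beside it.

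*Prdx2* is abundant in red blood cells, whose markers were poorly covered. Only *Alas2* of 8 listed red blood cell markers was measured, at 4.10 to 5.15 CPM in WT and 1.03 to 2.06 in C2-/-, and it passed as lower (log2 change -1.52, SE 0.45, limma adjusted p = 0.0207). That call rests on as few as 4 reads in a library and was lost with the GC correction (-0.79, limma adjusted p = 0.216). The globin genes were not analysed here, and the part of red blood cells in the *Prdx2* difference was not tested. The exons of *Prdx2* overlap those of *Junb* and *Rnaseh2a* on the opposite strand over 5.67% and 5.80% of their length, and 23.8% of its 50-base stretches occur in other annotated genes, among them the pseudogene Tdpx-ps1. Whether counting used strand was not stated.

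*Prdx1* was at 7.49, 7.46, 7.54 and 7.66 in WT and at 7.61, 7.41 and 7.28 in C2-/-, with overlapping ranges and a change of -0.10 (SE 0.15, limma adjusted p = 0.585). After the GC correction it was 7.81 to 8.02 in WT and 6.77 to 7.20 in C2-/-, a change of -0.94 (SE 0.15, limma adjusted p = 0.00341). Of its 50-base stretches, 10.9% occur in 3 pseudogenes (Gm21399, Gm7204 and Gm15974). The difference between *Prdx1* and *Prdx2* within a library was 0.28 to 0.75 in WT and 1.82 to 2.19 in C2-/-, again without overlap. The GC correction narrowed the change in this difference from 1.52 to 0.45, with 0.90 to 1.02 in WT and 1.16 to 1.75 in C2-/-.

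The mitochondrial peroxiredoxin *Prdx3* was at 8.04, 8.0, 8.12 and 7.75 in WT and at 7.15, 7.17 and 7.82 in C2-/-. C2-/- replicate 3 lay inside the WT range. The change of -0.60 (SE 0.20, limma adjusted p = 0.0302) was just past the fold minimum, at 1.51-fold lower. It was under the threshold without WT replicate 1 (-0.57), WT replicate 2 (-0.59), WT replicate 3 (-0.55), C2-/- replicate 1 (-0.48) or C2-/- replicate 2 (-0.49). The GC correction widened it to -1.07 (SE 0.20, limma adjusted p = 0.00573).

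*Prdx5*, found in mitochondria, peroxisomes and the cytosol, was at 7.07, 6.74, 7.13 and 6.44 in WT and at 5.87, 6.05 and 5.76 in C2-/-. The C2-/- values were all below WT replicate 4, the lowest WT library. The change was -0.95 (SE 0.20, limma adjusted p = 0.00446), and it passed in each of the 7 fits without a library, but the GC correction gave 0.55 (SE 0.22, limma adjusted p = 0.0962). The exons of *Prdx5* overlap those of *Trmt112* on the opposite strand over 19.1% of their length.

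Within mitochondria *Sod2* and *Prdx3* gave unlike values. The log2 CPM of *Sod2*, which makes hydrogen peroxide there, minus that of *Prdx3*, which removes it, was 0.20 to 0.60 in WT and 1.35 to 1.94 in C2-/-, without overlap. Because the values are not scaled for length, this difference is read only between the groups and not as an order of the genes. With the GC correction the gap was 0.39 to 0.73 in WT and 1.15 to 1.67 in C2-/-, and there *Sod2* itself did not pass. The part of base composition in this gap was not tested. Other gaps between members were examined as deposited. *Sod2* minus *Sod1*, *Gpx1* minus *Gpx3* and *Prdx3* minus *Prdx5* overlapped between the groups. *Cat* minus *Gpx1*, *Cat* minus *Gpx4* and *Gpx3* minus *Gpx4* did not. The share of such gaps over all pairs of genes was not computed, and single genes were wholly above WT for 22.6% and wholly below for 26.7%. Of 20 mitochondrial genes listed, 5 passed as higher, 7 as lower and 8 did not pass, beside 20.2% higher and 25.0% lower over all genes, and after the GC correction 3 passed as higher and 5 as lower, beside 12.3% and 8.33%. Their summed level was 15476 to 18205 CPM in WT and 12997 to 13387 in C2-/-. The largest rises were in *Cox5a* (1.29, SE 0.20) and *Cycs* (1.14, SE 0.25), a subunit of complex IV and cytochrome c. The largest falls were in *Uqcrc1* (-2.03, SE 0.22), of complex III, and *Timm23* (-1.40, SE 0.24), of the import channel. *Cycs* was at 0.14 and not past the threshold after the GC correction, and the other 3 kept their calls, *Uqcrc1* at a smaller change of -0.64. The median of the list was -0.31 compared with -0.14 for all genes.

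*Cat* is a peroxisomal enzyme, and of 22 other peroxisomal genes 4 passed as higher, 7 as lower and 11 did not pass, beside 20.2% higher and 25.0% lower over all genes, with a median of -0.13. After the GC correction 1 passed as higher and 2 as lower, beside 12.3% and 8.33%. Nothing is read from these counts about the compartment. The summed level of the 22 genes was 1148 to 1297 CPM in WT and 1312 to 1323 in C2-/-, wholly above WT by a narrow margin. The peroxins *Pex13* (1.08, SE 0.20) and *Pex7* (1.01, SE 0.35) had the largest rises, both smaller than that of *Cat*, and both calls were lost with the GC correction (-0.15 and 0.37). The largest falls were in the thiolase *Acaa1a*, which had 0 reads in a C2-/- library, and in the peroxin *Pex6* (-2.38, SE 0.58), and these calls were lost with the correction too (-1.95 and -0.43).

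Levels were compared between genes per kilobase of the longest protein-coding transcript, as log2 CPM per kb. In WT the order was *Prdx3* (7.41 ± 0.16, SD, n = 4), *Sod1* (7.40 ± 0.17), *Gpx4* (7.36 ± 0.55), *Gpx3* (6.64 ± 0.14), *Prdx5* (6.51 ± 0.32), *Prdx2* (6.38 ± 0.16), *Prdx1* (6.34 ± 0.09), *Sod2* (5.85 ± 0.18), *Cat* (5.58 ± 0.82) and *Gpx1* (5.14 ± 0.08). Only *Prdx1* and *Sod2* were neighbours whose WT ranges did not overlap. All 10 were abundant transcripts, since *Gpx1*, the lowest, stood above 88.3% of the genes with a known length and *Prdx3* above 97.6%. The order depends on the length used, because the *Sod2* transcript has a long untranslated region, and per kilobase of coding sequence *Sod2* was first in both groups.

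In C2-/- the order on the transcript scale was led by *Sod1* (7.90 ± 0.14, SD, n = 3) and *Cat* (7.77 ± 0.51), and *Gpx4* (4.47 ± 0.65) was last. The C2-/- ranges of *Sod1* and *Cat* overlapped, as did those of *Gpx4* and its neighbour *Prdx2* (4.75 ± 0.02). *Cat* moved from rank 9 to rank 2 and *Gpx4* from rank 3 to rank 10, or from rank 7 to rank 10 per kilobase of coding sequence, and the WT range of *Gpx4* overlapped those of its neighbours.

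The summed length-scaled level of the 10 genes changed little by comparison. It was 961 to 1065 CPM per kb in WT and 821 to 1017 in C2-/-, which overlap. Within that sum *Cat* made up 3.21 to 3.68% in the deep WT libraries, 11.5% in WT replicate 4 and 17.7 to 28.2% in C2-/-. *Gpx4* made up 18.7 to 19.4% in the deep WT libraries, 9.63% in WT replicate 4 and 1.35 to 3.62% in C2-/-. *Sod1* made up 16.8% ± 2.79 (SD, n = 4) in WT and 25.6% ± 1.45 (SD, n = 3) in C2-/-, and *Gpx1* was at 3.48% ± 0.33 and 3.52% ± 1.37. Shares of a sum are not independent of each other, and they carry no test here.

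**Figure D4:**
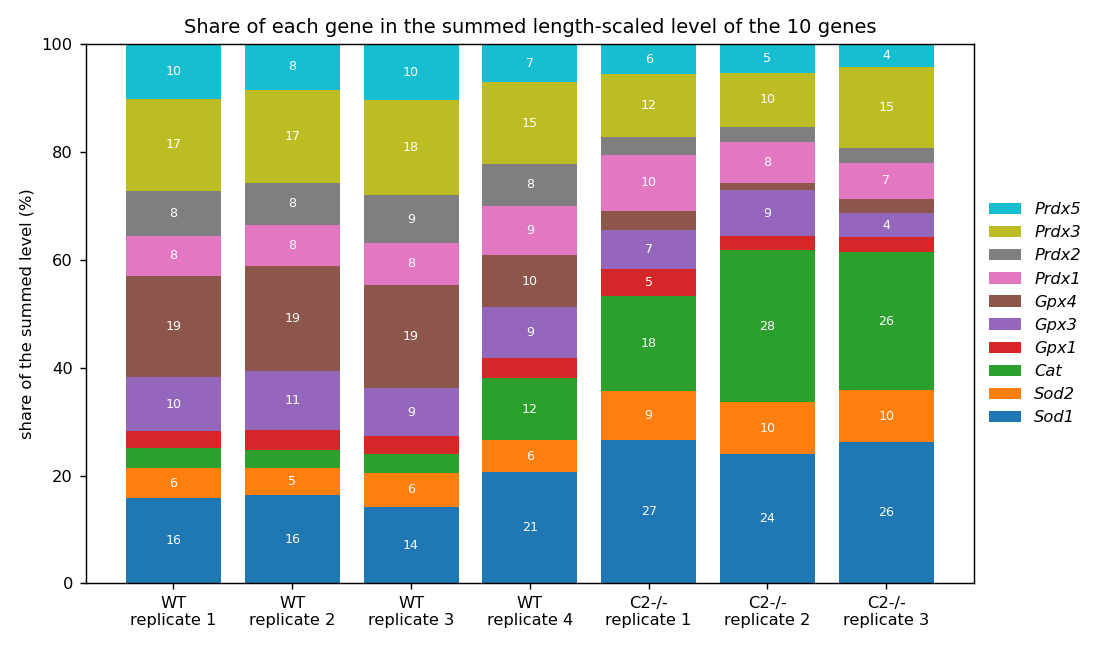
Share in percent of each gene in the summed length-scaled level (CPM per kb of transcript) of the 10 genes, 1 bar per library, with shares above 4% printed rounded. *Cat* (green) takes 3.21 to 11.5% of the WT bars and 17.7 to 28.2% of the C2-/- bars, and *Gpx4* (brown) takes 9.63 to 19.4% and 1.35 to 3.62%.

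Spread between libraries differed among the 10 genes. The median SD over the 10 was 0.16 in WT and 0.30 in C2-/-, and over genes whose mean log2 value was 3 or more it was 0.27 and 0.34. The largest WT SDs were those of *Cat* (0.82) and *Gpx4* (0.55), and among WT replicates 1 to 3 no gene of the 10 had an SD above 0.22. In C2-/- the SDs of *Gpx4* (0.65), *Cat* (0.51), *Gpx3* (0.46), *Prdx3* (0.38) and *Gpx1* (0.37) lay above the 0.34 of expressed genes.

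Other genes of the same families were examined next. Of 9 listed, 6 were measured, and 3 passed as lower, 0 as higher and 3 did not pass, beside 25.0% lower and 20.2% higher over all genes. The counts were the same after the GC correction, beside 8.33% and 12.3%. *Prdx6*, a cytosolic peroxiredoxin that uses glutathione, was at 6.67, 6.54, 6.86 and 6.24 in WT and at 5.55, 5.59 and 5.12 in C2-/-. Its fall (log2 change -1.16, SE 0.20, limma adjusted p = 0.00191) was -1.34 after the GC correction, and its C2-/- values were all below its WT values.

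*Ccs*, the chaperone that loads copper into SOD1, had 34 to 139 reads in WT and 2, 0 and 2 reads in C2-/-, and passed as lower (limma adjusted p = 0.000703). *Prdx4*, the peroxiredoxin of the secretory pathway, had 11 to 56 reads in WT and 2, 0 and 4 in C2-/- and also passed as lower (limma adjusted p = 0.0147). With so few reads the size of these falls depends on the reads added before the log. *Sod3*, the extracellular dismutase, was at 1.72 to 2.53 in WT and 2.11 to 3.08 in C2-/-, *Gpx7* was at 1.72 to 2.39 and 1.12 to 2.94, and *Gpx8* was at 1.17 to 3.98 and 1.67 to 2.41. These last 3 overlapped between groups and did not pass.

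The wider set of redox genes was also mixed in direction. Over 90 measured genes of 98 listed, which include the 6 family members above, the glutathione, thioredoxin, selenium and Nrf2 pathways and the enzymes that make oxidants, 21 passed as higher, 26 as lower and 43 did not pass, with a median of -0.23. After the GC correction 15 passed as higher and 10 as lower. Over all genes 20.2% passed as higher and 25.0% as lower, or 12.3% and 8.33% after the correction, and nothing is read from the counts about these genes. The lists were chosen with earlier results of these data known.

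In glutathione metabolism, 8 of 28 measured genes passed as higher and 8 as lower, beside 20.2% and 25.0% of all genes. *Gclm*, the modifier subunit of the enzyme that limits glutathione synthesis, was 1.86 higher (SE 0.39), and *Glrx3*, a glutaredoxin, was 1.92 higher (SE 0.44). *Oplah*, which recycles oxoproline to glutamate, was 3.63 lower (log2 change -3.63, SE 0.52), and *Mgst3*, a microsomal glutathione transferase, had a log2 change of -2.22 (SE 0.29). *Gclm* lost its call with the GC correction (0.99) and the other 3 kept theirs.

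In the thioredoxin system, which restores the peroxiredoxins, 3 of 13 genes passed as higher and 3 as lower, beside 20.2% and 25.0% of all genes. Thioredoxin itself (*Txn1*) was 1.11 higher (SE 0.28), as was the methionine sulfoxide reductase *Msrb3* (1.02, SE 0.25). The mitochondrial thioredoxin reductase *Txnrd2* (-2.65, SE 0.65) and *Msrb1* (-1.71, SE 0.19) were lower. None of these 4 passed after the GC correction, when *Txn1* was at 0.86 and *Txnrd2* at -1.62.

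Among selenium genes, which make and use selenocysteine as the glutathione peroxidases do, 6 of 18 passed as higher and 4 as lower, beside 20.2% and 25.0% of all genes. *Selenof* (listed as *Sep15*) was 1.64 higher (SE 0.31) and *Selenot* (*Selt*) 1.52 higher (SE 0.26). *Selenoo* (*Selo*, -1.96, SE 0.57) and *Selenon* (*Sepn1*, -1.77, SE 0.56) were lower. Only *Selenof* of these 4 was past the threshold after the GC correction. The fall of *Gpx4* was thus not shared by all selenoprotein genes.

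Of 14 genes of the Nrf2 pathway, 2 passed as higher and 5 as lower, beside 20.2% and 25.0% of all genes. *Nfe2l2*, which encodes Nrf2, was at 5.51 to 5.64 in the deep WT libraries, 6.98 in WT replicate 4 and 6.32 to 6.63 in C2-/-, and did not pass (0.53, SE 0.33, limma adjusted p = 0.206). *Keap1*, which targets Nrf2 for degradation, was at 5.50 to 6.27 in WT and 4.43 to 4.84 in C2-/- (-1.41, SE 0.24, limma adjusted p = 0.00157), but the GC correction gave 0.04. *Bach1*, a repressor at AREs, rose by 1.43 (SE 0.30), and *Cul3*, the ligase partner of *Keap1*, by 1.08 (SE 0.26). *Ftl1*, the ferritin light chain (-2.08, SE 0.22), and the autophagy receptor *Sqstm1* (-1.79, SE 0.16) fell. Of these, *Bach1* and *Sqstm1* were past the threshold after the GC correction, and *Cul3* was then at -0.16.

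Of 11 measured genes listed as sources of oxidants or nitric oxide, 2 passed as higher and 3 as lower, beside 20.2% and 25.0% of all genes. *Cybb*, the phagocyte oxidase subunit, was 1.58 higher (SE 0.53) and *Maob*, a monoamine oxidase of the outer mitochondrial membrane, 0.95 higher (SE 0.30). *Xdh* (xanthine dehydrogenase, -1.59, SE 0.37) and *Nos3* (endothelial nitric oxide synthase, -1.56, SE 0.48) were lower. None of these 4 passed after the GC correction.

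**Figure D5:**
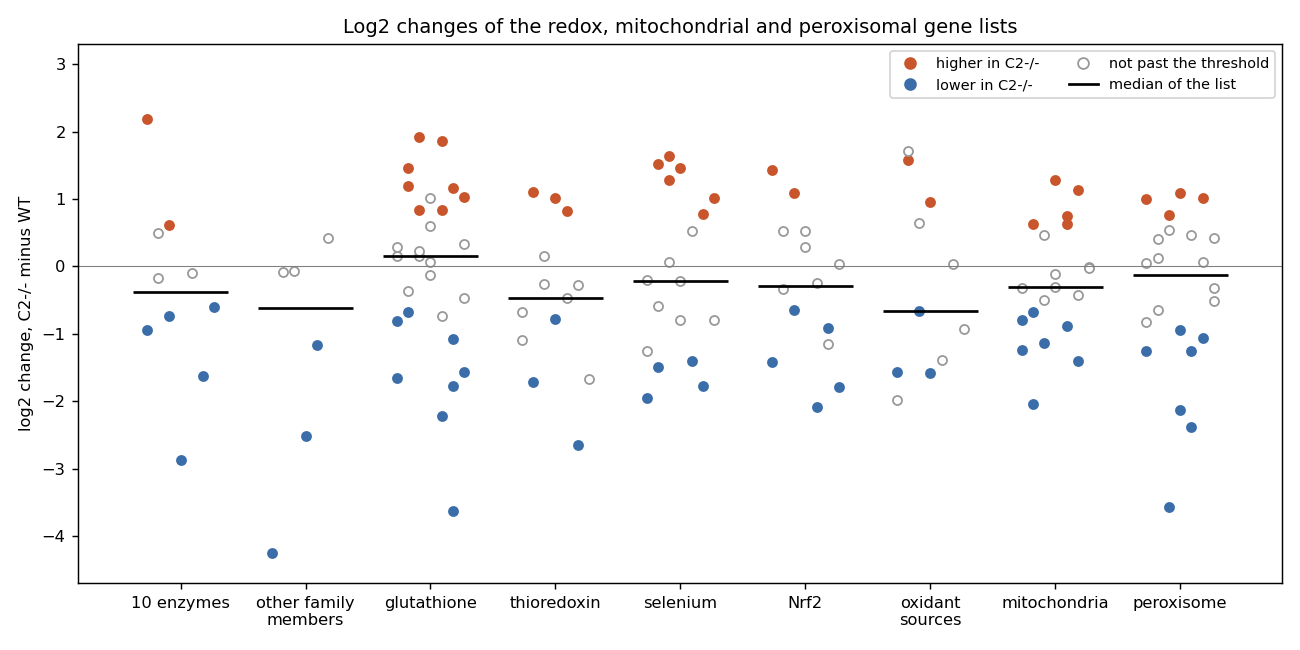
Log2 change (C2-/- minus WT) of each measured gene in the 10 enzymes and 8 related lists, with orange for higher, blue for lower and open grey for not past the threshold, and a black line at the median of each list. The list medians lie between -0.66 and 0.16, and every list except the other family members holds genes past the threshold on both sides of 0.

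The genes whose profile over the 7 libraries was nearest to that of *Gpx4* were *Gigyf1*, *Asb16* and *Amigo3*, at Euclidean distances of 0.27, 0.29 and 0.34 log2 units after each gene was centred on its mean. Their log2 changes were -2.81, -2.95 and -2.91, and their transcripts had 58.7%, 56.8% and 56.8% GC.

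Markers of some cell types differed between the groups. The summed level of the 12 fast-fibre markers was 217055 to 252318 CPM in WT and 113083 to 173597 in C2-/-, with 6 of 12 lower and 0 higher, beside 25.0% and 20.2% of all genes. After the GC correction 2 were lower and 1 higher, beside 8.33% and 12.3%, and the median of the list was 0.15 instead of -0.74. That of the 8 fibroblast markers was 979 to 1184 CPM in WT and 2062 to 2616 in C2-/-, with 6 higher and 1 lower, or 4 and 0 after the correction, when 12.3% and 8.33% of all genes were called. The 8 endothelial markers summed to 449 to 618 CPM in the deep WT libraries, 379 in WT replicate 4 and 296 to 399 in C2-/-, so that the groups overlapped through WT replicate 4 alone. Of these markers 3 passed as lower and 0 as higher, and 0 passed after the correction. The 5 satellite cell markers measured summed to 30.9 to 35.8 CPM in the deep WT libraries, 12.3 in WT replicate 4 and 16.9 to 21.7 in C2-/-, and 1 of them (*Myf5*, with as few as 1 read in a library) passed as higher. The 8 macrophage markers summed to 57.6 to 78.7 CPM in WT and 67.5 to 107 in C2-/-, and the sums of the slow-fibre, smooth muscle and Schwann cell markers overlapped as well. Among single markers, 2 of macrophages passed as higher and 1 as lower, and 2 of smooth muscle and 1 of Schwann cells as lower. Over all genes 20.2% and 25.0% did so. After the GC correction 1 macrophage, 1 smooth muscle and 1 slow-fibre marker passed as higher and 0 as lower, beside 12.3% and 8.33%. The part of the cell mixture in the differences of the 10 enzymes was not tested.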

How the data were processed

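RNA was extracted from TA muscle, selected for poly(A), and sequenced as DNA nanoballs. Per the submitters' processing notes and the study's methods, the authors aligned reads to GRCm38.p6 with HISAT, counted them per gene with featureCounts 1.5.2, scaled libraries with edgeR's TMM factors and deposited log2 values for 12239 genes. The filter on genes, strand use and the handling of multiply mapped reads were not stated. A second table deposited by the authors, with their own fold changes and p-values, was not used.

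The deposited log2 values were whole reads plus 0.5 over the effective library size, and 100% of values came back as whole reads (largest departure 2.2e-08 reads). A count of 3 reads is worth 0.195 to 1.12 CPM, a floor that covers counting error only. All pairs of libraries differed by more than counting error (chi-square at least 9.12 per degree of freedom) and were counted as separate samples. The series' design text gives 4 animals in each group, and 4 WT and 3 C2-/- samples were analysed here. The labels do not name the animal of each library, so p-values measure the spread between these samples.

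The test was limma 3.58.1 (R 4.3.3), eBayes with a trend, two-sided, genotype as the only term, on all 7 libraries, with Benjamini-Hochberg adjustment over 12239 genes and a threshold of 1.5-fold and an adjusted p below 0.05. It was tested on simulated data. GC content and length came from the longest protein-coding transcript in the GENCODE annotation of GRCm38 and were matched for 12173 genes, 355 through an older symbol. The GC correction removed a natural spline with 5 degrees of freedom from each library. Promoter sequences were those of RefSeq. Named genes were the 10 members, other measured members of their families, *Nfe2l2*, *Keap1*, up to 2 rises and 2 falls with the largest change in each list, and the 3 nearest profiles to the member with the largest change. The members and lists were chosen with earlier results of these data known, so they are not independent evidence. The fits with WT replicate 4 as the only WT library, with and without GC correction, and the GC correction without WT replicate 4 were chosen after seeing the data.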

Additional observations from a re-analysis of the deposited data

Results flagged for a closer look

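Of 30 WT values or sums tested (the 10 enzymes, 6 other family members, depth, genes at 0 reads and the marker and compartment sums), 7 had a sample far from the other 3 by Dixon's criterion, where chance flags about 1 in 20 groups. WT replicate 4 was the sample in 6 of the 7. *Cat* was at 8.18 in WT replicate 4 and 6.39 to 6.65 in the others, *Gpx4* was at 6.53 and 7.60 to 7.67, and *Gpx8* was at 3.98 and 1.17 to 1.40. The same library held 4683853 reads (14929214 to 15464499 in the others), 75 genes at 0 reads (1 to 3) and a summed adipocyte marker level of 616 CPM (294 to 317). In WT replicate 2 the summed peroxisomal level was 1148 CPM, compared with 1277 to 1297 in the others. For *Cat* and *Gpx4* the C2-/- values lay beyond WT replicate 4 on the same side, and their calls hold without that library (2.60 and -3.15). Which of these properties of WT replicate 4 belong together was not tested.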

How the results depend on the processing

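*Cat*, *Gpx4* and *Prdx2* kept direction and call in 11 other ways of processing (no trend, library weights, median centring, quantile normalization, 2 reads added, voom, a mean log2 of at least 3, GC correction, GC and length correction, and the replicate block without and with GC correction) and in the 7 fits that left out a library. The other 7 genes did not. The block fits give the same changes as the fits without WT replicate 4, so they are not further support beside those. With the shallow libraries only, *Cat* was not past the threshold (0.98), and with GC correction as well none of the 3 was (0.92, -0.76 and -1.32). By setting, the 10 genes past the threshold numbered 2 with the shallow libraries only (WT replicate 4 and C2-/-), 0 when these were also GC corrected and 4 at an adjusted p under 0.01. Of these, the higher ones numbered 1 with library quality weights, with quantile normalization and at 0.01, and 0 in both shallow sets. The lower ones numbered 3 without the trend, with median centring and at 0.01, 2 in the shallow set and 0 with its GC correction. Leaving out a library gave 4 to 7 in all, 1 to 2 higher and 3 to 5 lower.

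Over the 90 other redox genes, 47 passed in all libraries. This count was 25 with GC correction, 28 with GC and length correction, 29 with GC correction without WT replicate 4 and at 0.01, 5 in the shallow set (0 higher and 5 lower) and 0 in the shallow set with GC correction (0 higher, 0 lower). The lower ones numbered 10, 13, 10 and 14 in the first 4 of those settings, and leaving out a library gave 33 to 50 (17 to 23 higher, 16 to 28 lower). Over all genes, 5528 passed. The count was 2509 (1495 higher, 1014 lower) with GC correction, 2511 (1504 and 1007) with GC and length correction, 3128 (1183 lower) with GC correction without WT replicate 4, 3216 (1456 and 1760) at 0.01, 554 (313 and 241) in the shallow set and 20 (17 and 3) with its GC correction. Leaving out a library gave 4095 to 6136 (1896 to 2876 higher, 2193 to 3260 lower).

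Genes past the threshold as deposited, and *Gpx1*, which was not, changed sign in settings with a GC correction. *Prdx1*, which passes only with that correction, was at 0.06 with median centring compared with -0.10 as deposited. With GC correction, then with GC and length correction, then with GC correction without WT replicate 4, *Sod2* was at -0.23, -0.22 and -0.32, *Gpx1* at 1.18, 0.96 and 1.30, *Gpx3* at 0.45, 0.36 and 0.49, and *Prdx5* at 0.55, 0.38 and 0.53. *Pex13* was at -0.15, -0.10 and -0.28. *Cul3* was at -0.16 and -0.11 with the first 2 of these, *Keap1* at 0.04 and 0.14, and *Nos3* at 0.01 with GC and length correction. In the shallow set with GC correction *Gpx3* was at 0.31, *Prdx5* at 0.60, *Cul3* at -0.63, *Cycs* at -0.33, *Keap1* at 0.27, *Msrb3* at -0.03, *Nos3* at 0.42, *Pex6* at 0.19, *Pex7* at -0.22, *Selt* at -0.11 and *Sepn1* at 0.09. The cause was not tested.

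Replicate numbers are shared between the groups, but same-numbered libraries did not deviate together (correlations of -0.06 to 0.05 over 3 pairs), so the numbers were not taken as pairs. With the replicate number as a block, WT replicate 4 has no partner, so the changes come from replicates 1 to 3 alone. They equal those of the fits without WT replicate 4, as for *Cat* (2.60) and *Gpx4* (-3.15). The block fits therefore repeat that comparison and add no separate support. With the block 7 of the 10 genes passed, 2 higher and 5 lower, and with the block and GC correction 7 passed. In that last fit 29 other redox genes (11 lower) and 2911 of all genes (1115 lower) passed, *Sod2* was at -0.32, *Gpx1* at 1.30, *Gpx3* at 0.49, *Prdx5* at 0.53 and *Pex13* at -0.28.

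Depth limits the lowest values. *Gpx4* rests on 35 to 134 reads in C2-/- and *Gpx1* on 72 to 152, while *Ccs* and *Prdx4* have too few for a fold. Other named genes also had few reads in their lowest library. Among them were *Txnrd2* (2 reads), *Sepn1* (3), *Oplah* (4), *Selo* (5), *Cybb* (5) and *Pex6* (7), so the sizes of their changes are uncertain.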
